A study of Heterocephalus glaber and Mus musculus with 9 samples.

Results

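Interleukins, chemokines, colony-stimulating factors and their receptors were examined in spleen RNA of mice and naked mole-rats (NM-Rs). Genes were taken by symbol, as those starting with Il or Csf and a digit, with Ccl, Cxcl, Cxcr, Cx3c or Xcr, or with Ccr and a digit. Of 86 such genes, 8 were left out (Csf3r, Cxcr2, Ccl5, Cxcl13, Cxcr5, Ccl19, Ccl21 and Ccr7), and 78 of the 12946 genes in the table remained. Spleens came from 3 male wild-type C57Bl/6N mice aged 2 months and kept at about 22 °C, and from 6 non-reproductive NM-Rs kept at 29 °C. The cohort with small spleens (ssNM-R) held 3 males, number 2 of 30 months, number 3 of 26 months and number 6 of 23 months. The cohort with enlarged spleens (lsNM-R) held number 1, a male of 24 months, number 4, a female of 29 months, and number 5, a male of 23 months. Values are given below in the order mouse 1, 2 and 3, ssNM-R 2, 3 and 6, and lsNM-R 1, 4 and 5. By the methods of the study, mice lived in a pathogen-free facility on a standard diet and were killed by cervical dislocation. NM-Rs lived in humidified incubators on fruit and vegetables and were killed by decapitation. Species therefore went together with age, housing and its temperature, diet, way of killing, genome and gene annotation, and these cannot be told apart.

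Each value is a normalized count, the reads of a gene divided by 1 size factor per library, with no division by gene length. Libraries held 11180912, 10441982 and 10965902 reads in mice, 8985705, 7815326 and 18219644 in ssNM-Rs and 8327759, 16883689 and 18387599 in lsNM-Rs. A count of 3 reads, taken as the floor, was worth between 1.88 normalized counts in lsNM-R 5 and 4.50 in ssNM-R 3, and floors and intervals cover counting error only. Ratios with a counting interval, given for genes with at most 3 reads in every library of 1 species, set the mean of the other species against the summed reads over the summed size factors, and so differ from a ratio of the 2 means. Changes between groups are differences of log2(normalized count + 1) with their standard error (SE) from a limma fit over the 9 spleens, and a gene was called at a Benjamini-Hochberg adjusted p under 0.05 over all 12946 genes. This scale understates the change of genes with few reads. Since the exon lengths counted in NM-Rs were not analysed here, a difference between species for 1 gene also carries any difference between the gene models.

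Interleukins and chemokines are secreted proteins through which immune and stromal cells signal to each other, and each acts on a cell that carries the matching receptor. Interleukin receptors are built from several chains that pass the signal on through JAK kinases and STAT factors or, in the interleukin 1 family, through MyD88 and IRAK kinases and, in the interleukin 17 family, through the adaptor Traf3ip2, while chemokine receptors are coupled to G proteins and guide cell migration. In the spleen, these signals keep lymphocytes alive, maintain macrophages and set where cells settle. Some members work as inhibitors, either as decoy receptors or as soluble proteins that occupy a ligand or a receptor.

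Markers of the tissue were present in both species. Tlx1, a transcription factor needed to form the spleen, stood at 926, 665 and 647 in mice, 969.5, 859 and 864 in ssNM-Rs and 702, 747 and 973 in lsNM-Rs. All 5 genes of the spleen tissue list were read in each library, and their summed normalized counts were 16627, 13744 and 11938 in mice, 21778, 18524 and 13632 in ssNM-Rs and 21937, 20619.8 and 24474 in lsNM-Rs. Slc40a1, an iron exporter of macrophages, made up 84% of this sum in mice and 90.6% in NM-Rs. Of the 5 genes, Nkx2-5 and Slc40a1 were higher in NM-Rs, Nkx2-3 and Tcf21 lower and Tlx1 not called.

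Most receptor chains were lower in NM-R spleens, while ligands went both ways. Between NM-Rs and mice, 24 of the 78 genes were higher (30.8%) and 43 were lower (55.1%), against 39.7% and 38.8% of all 12946 genes. The median log2 fold change was -1.14 over the 78 genes and 0.0097 over all genes. Of 39 receptor chains, 8 were higher and 27 lower with a median of -1.93, whereas of 33 ligands 14 were higher and 12 lower with a median of 0.33, or 0.21 with Il13 and Il25, which had no read in mice, set at their bounds. The ligand median is the value of Il1b and did not keep its sign, with -0.039 without ssNM-R 6, -0.024 without lsNM-R 5 and -0.047 with a term for library depth, and it was 0.039 over ligands with a mean of at least 10. Of 5 inhibitors, Il1r2 and Il1rn were higher and Il18bp, Il13ra2 and Il22ra2 lower. In 58 of the 78 genes the 6 NM-R spleens did not overlap with the 3 mouse spleens, a share of 74.4% that lies near the 72.6% of all genes.

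**Figure D1:**
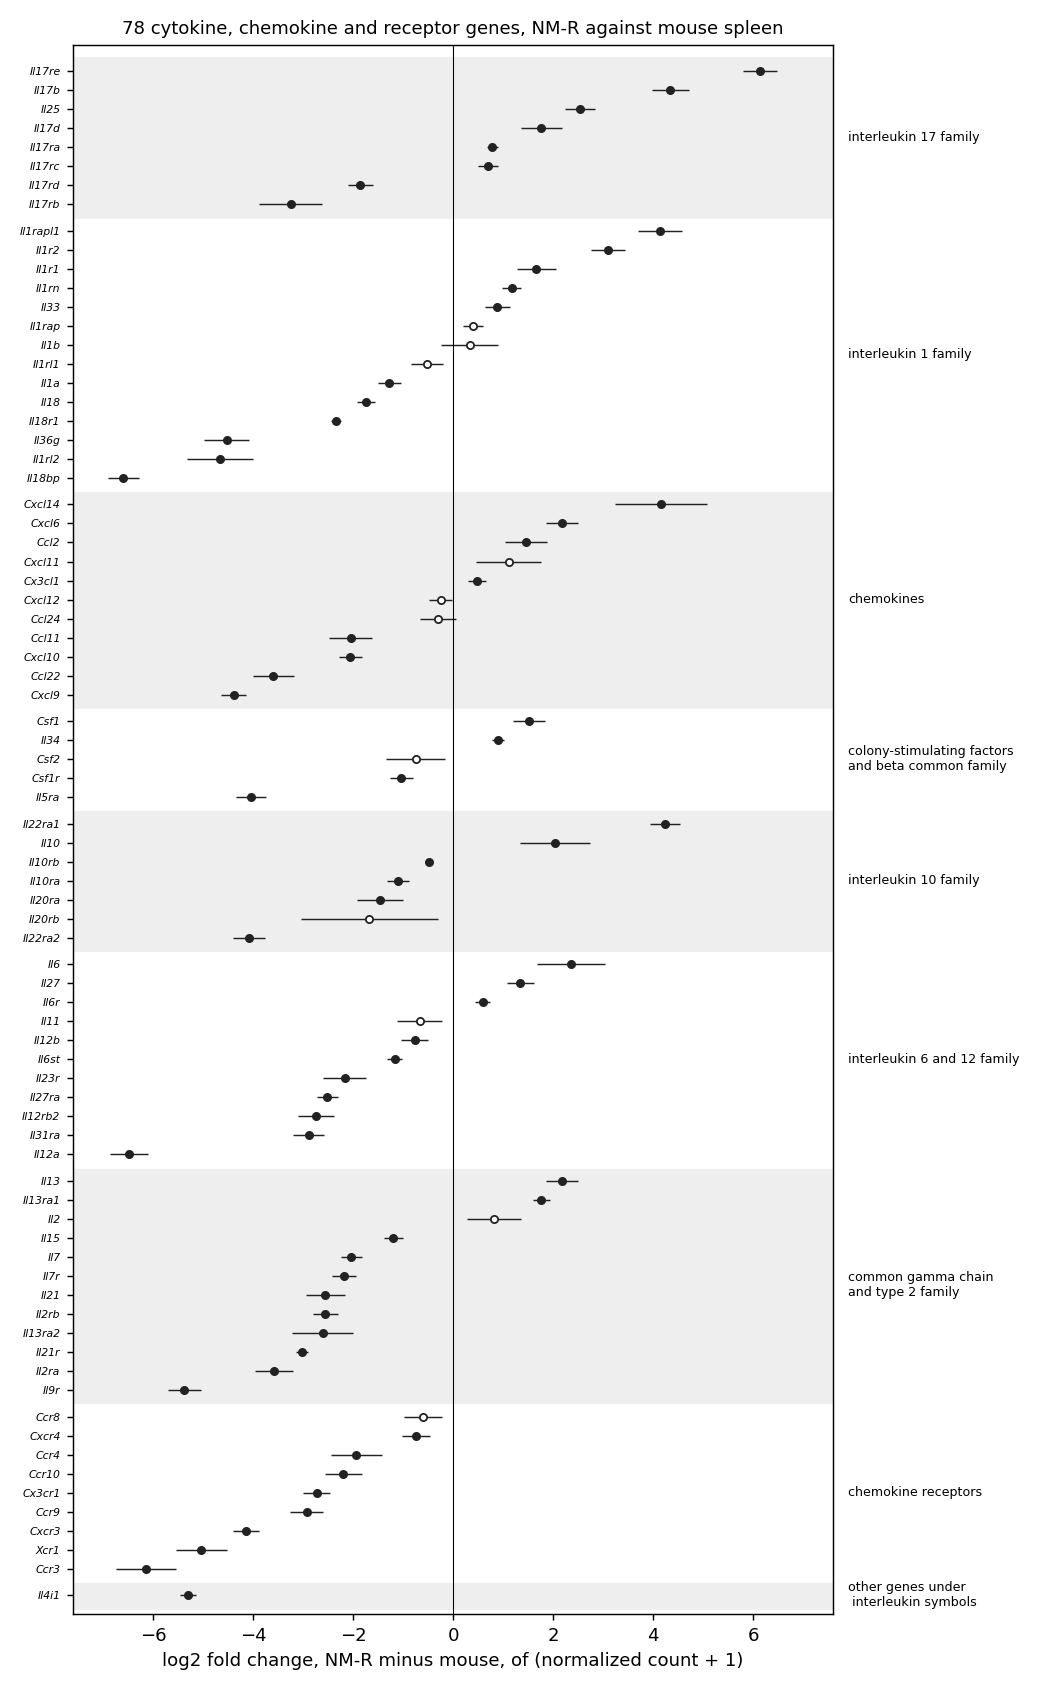
Log2 fold change between NM-R and mouse spleens for each of the 78 genes (x axis, difference of log2(normalized count + 1), mean of both NM-R cohorts minus mouse; bars are the SE of the limma fit, 3 mice and 6 NM-Rs), grouped by family on the y axis. Filled points passed an adjusted p of 0.05 and open points did not; none of the 9 chemokine receptors lies to the right of 0, and Il17re, at 6.14, lies farthest to the right.

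Both cohorts were also set against the same 3 mice, so these comparisons share their controls. Between ssNM-R and mouse, 24 genes were higher and 42 lower, beside 38% and 37.5% of all genes. Between lsNM-R and mouse, 22 were higher and 41 lower, beside 38.1% and 37% of all genes. The log2 fold changes against mouse were 6.14 in ssNM-R and 6.13 in lsNM-R for Il17re, -6.68 and -6.51 for Il18bp, -4.42 and -4.37 for Cxcl9 and 1.88 and 0.81 for Il27.

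Among the 11 chemokines, 4 were higher in NM-Rs, 4 were lower and 3 were not called, with a median log2 fold change of -0.25. This median is the value of Cxcl12 and was -0.047 with a term for library depth, -0.17 without mouse 1, -0.11 without mouse 3, -0.11 without lsNM-R 4 and -0.40 without lsNM-R 5. Cxcl9, a chemokine induced by interferon gamma that attracts activated T cells, stood at 753, 677 and 1233 in mice, 36.9, 52.5 and 31 in ssNM-Rs and 42.4, 31 and 50.8 in lsNM-Rs. Every NM-R value was below the lowest mouse value, with the cohorts intermixed (log2 fold change -4.39 ± 0.25 SE, limma adjusted p = 1.53e-07). Cxcl10, which binds the same receptor, was 371, 505 and 639 in mice, 142, 153 and 97.3 in ssNM-Rs and 94.6, 91.7 and 147 in lsNM-Rs. It too was separated between the species (log2 fold change -2.05 ± 0.23 SE, limma adjusted p = 1.73e-05). Cxcl11, the remaining ligand of that receptor, had at most 12.7 normalized counts in any spleen and was not called (log2 fold change 1.12 ± 0.65 SE, limma adjusted p = 0.14), though it was called higher without mouse 3 (log2 fold change 1.72).

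Cxcl9 and Cxcl10 lie side by side on mouse chromosome 5 (mm9, chr5:92750357-92757105 and chr5:92775664-92777915, both on the minus strand). Mouse promoters are shown for these neighbours, which were lower together, and for Il15, which is also known to respond to interferon, chosen after their values were seen. Cxcl11, which lies nearby on the same strand (chr5:92788570-92794511), was not called. Each window runs from 250 bases before to 50 bases after the gene start, is read 5′ to 3′ on the minus strand, and has capitals where the letters AANNGAAA, the core that interferon regulatory factors bind, match on either strand. These letters were chosen after matches to a longer interferon motif had been seen.
Cxcl9 chr5:92757056-92757355: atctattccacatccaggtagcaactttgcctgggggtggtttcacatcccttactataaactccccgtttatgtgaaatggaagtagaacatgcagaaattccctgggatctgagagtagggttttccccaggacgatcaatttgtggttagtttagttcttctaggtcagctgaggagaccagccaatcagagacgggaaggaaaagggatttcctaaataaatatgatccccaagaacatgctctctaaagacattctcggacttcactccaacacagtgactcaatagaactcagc
Cxcl10 chr5:92777866-92778165: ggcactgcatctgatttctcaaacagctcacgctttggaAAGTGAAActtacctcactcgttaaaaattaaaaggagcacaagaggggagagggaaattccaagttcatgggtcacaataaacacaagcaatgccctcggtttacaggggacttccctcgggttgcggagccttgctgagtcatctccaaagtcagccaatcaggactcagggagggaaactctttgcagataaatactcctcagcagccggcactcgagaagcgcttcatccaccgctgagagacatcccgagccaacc
Il15 chr8:84927072-84927371: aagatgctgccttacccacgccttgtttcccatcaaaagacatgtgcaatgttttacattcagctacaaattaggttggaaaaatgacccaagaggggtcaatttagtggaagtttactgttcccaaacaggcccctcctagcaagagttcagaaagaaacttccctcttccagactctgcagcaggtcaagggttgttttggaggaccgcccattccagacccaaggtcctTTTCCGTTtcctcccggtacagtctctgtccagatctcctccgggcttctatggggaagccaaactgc
These letters occurred once in each of the windows of Cxcl10 and Il15, and not in that of Cxcl9. They are short, and were found in 5314 of 22380 promoters of protein-coding mouse genes (23.7%) and in 22 of the 74 promoters of the genes examined here. The letters TTCNNNGAA of the gamma-activated site were in 7.94% of all promoters, in 11 of the 74 and in none of the 3 shown. The corresponding NM-R sequences were not analysed here.

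Cxcl12, which stromal cells make to hold haematopoietic cells in place, stood at 13122, 12338 and 9819 in mice, 12006, 12824 and 10840.4 in ssNM-Rs and 7568, 5416 and 12965 in lsNM-Rs. The species overlapped, and lsNM-R 1 and lsNM-R 4 had the lowest values (log2 fold change -0.25 ± 0.24 SE, limma adjusted p = 0.344). It was called lower without lsNM-R 5 (log2 fold change -0.42, limma adjusted p = 0.0302, with 0.0302 to 0.619 over all alternatives). Its receptor Cxcr4 was 1958, 3151 and 2948 in mice, 1153, 1106 and 1356 in ssNM-Rs and 2042, 1223 and 3391 in lsNM-Rs. Mouse 1, lsNM-R 1 and lsNM-R 5 made the species overlap, and the call was close to the threshold (log2 fold change -0.75 ± 0.28 SE, limma adjusted p = 0.0302). The call of Cxcr4 was lost when mouse 2, mouse 3, ssNM-R 2, ssNM-R 3 or lsNM-R 1 was left out, with limma adjusted p of 0.122, 0.108, 0.0503, 0.0556 and 0.0514.

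Ccl22, made by dendritic cells and macrophages, was 157, 146 and 139 in mice, 2.73, 10.5 and 9.48 in ssNM-Rs and 9.89, 23.3 and 27.6 in lsNM-Rs. All NM-R spleens lay below all mice (log2 fold change -3.59 ± 0.42 SE, limma adjusted p = 2.25e-05). Its receptor Ccr4, carried by helper and regulatory T cells, was 91.3, 71.7 and 78.7 in mice, 24.6, 33 and 5.69 in ssNM-Rs and 45.2, 14.8 and 20.7 in lsNM-Rs, again with no overlap (log2 fold change -1.93 ± 0.51 SE, limma adjusted p = 0.00574). Cxcl6, a neutrophil attractant, was 17.1, 20.7 and 12.6 in mice, 73.8, 73.6 and 85.9 in ssNM-Rs and 83.3, 131 and 43.3 in lsNM-Rs. The lowest NM-R value, in lsNM-R 5, was above the highest mouse value (log2 fold change 2.18 ± 0.32 SE, limma adjusted p = 1.29e-04). The symbol Cxcl6 was matched neither in the mm9 annotation nor in the NM-R RefSeq annotation used here, and its gene model was not analysed. Cxcl14, a chemokine of epithelial and stromal tissue, was 0, 1.09 and 5.24 in mice, 8.2, 78.1 and 131 in ssNM-Rs and 45.2, 88.8 and 12.5 in lsNM-Rs. NM-R spleens ranged widely, and ssNM-R 2 came close to mouse 3 (log2 fold change 4.15 ± 0.92 SE, limma adjusted p = 0.00207).

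Ccl2, which draws monocytes out of the marrow, ranged from 14.8 to 60.0 in NM-Rs and was 11.8 ± 2.7 (SD, n = 3) in mice (log2 fold change 1.46 ± 0.42 SE, limma adjusted p = 0.00921). Cx3cl1, the membrane-bound ligand of Cx3cr1, averaged 47.1 ± 5.35 over 3 mice and 65.9 ± 8.28 over 6 NM-Rs (± SD), with an overlap between mouse 3 and lsNM-R 1 (log2 fold change 0.47 ± 0.18 SE, limma adjusted p = 0.0319). Its call was lost with the term for depth (log2 fold change 0.38), with total scaling (0.42) and without mouse 1 (0.38), mouse 2 (0.50), ssNM-R 3 (0.45), lsNM-R 4 (0.42) or lsNM-R 5 (0.45). Ccl11, a ligand of Ccr3 that attracts eosinophils, averaged 9.44 ± 4.61 over 3 mice and 1.56 ± 0.927 over 6 NM-Rs (± SD) and was lower (log2 fold change -2.04 ± 0.43 SE, limma adjusted p = 0.0015). Ccl24, another ligand of that receptor, averaged 58.1 ± 14.5 and 49.9 ± 22.6 and was not called (log2 fold change -0.30 ± 0.36 SE, limma adjusted p = 0.466).

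None of the 9 chemokine receptors was higher in NM-Rs, 8 were lower and Ccr8 was not called, with a median log2 fold change of -2.73. Without lsNM-R 1, Ccr8 was called lower as well (log2 fold change -0.80). Ccr3, the eosinophil receptor for Ccl11 and Ccl24, was 1581, 1382 and 1142 in mice, 16.4, 43.5 and 3.16 in ssNM-Rs and 16.9, 36.7 and 21.9 in lsNM-Rs. Even the highest NM-R spleen, ssNM-R 3, was far below the lowest mouse (log2 fold change -6.14 ± 0.60 SE, limma adjusted p = 6.40e-06). Xcr1, a receptor of cross-presenting dendritic cells, was 656, 440.2 and 656 in mice, 15, 34.5 and 5.69 in ssNM-Rs and 36.7, 14.1 and 12.5 in lsNM-Rs, and the species did not overlap (log2 fold change -5.03 ± 0.50 SE, limma adjusted p = 7.36e-06). Cxcr3, the receptor of Cxcl9 and Cxcl10 on activated T and NK cells, was 475, 377 and 466 in mice, 17.8, 42 and 22.8 in ssNM-Rs and 24, 21.2 and 20.7 in lsNM-Rs. Apart from a higher value in ssNM-R 3 the NM-R spleens were close to each other (log2 fold change -4.14 ± 0.25 SE, limma adjusted p = 2.29e-07).

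Ccr9, which guides lymphocytes to the gut and thymus, was 255, 249 and 254 in mice, 34.2, 30.0 and 16.4 in ssNM-Rs and 74.9, 31 and 28.2 in lsNM-Rs. Mice were nearly equal, and lsNM-R 1 stood above the remaining NM-Rs without reaching them (log2 fold change -2.93 ± 0.33 SE, limma adjusted p = 1.88e-05). Cx3cr1, found on monocytes and some macrophages, was 738, 665 and 587 in mice, 69.7, 162 and 107 in ssNM-Rs and 90.4, 128 and 66.5 in lsNM-Rs. NM-R spleens varied but stayed below the mice (log2 fold change -2.73 ± 0.27 SE, limma adjusted p = 7.06e-06). Ccr10 was also lower in NM-Rs (log2 fold change -2.19 ± 0.36 SE, limma adjusted p = 2.93e-04).

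**Figure D2:**
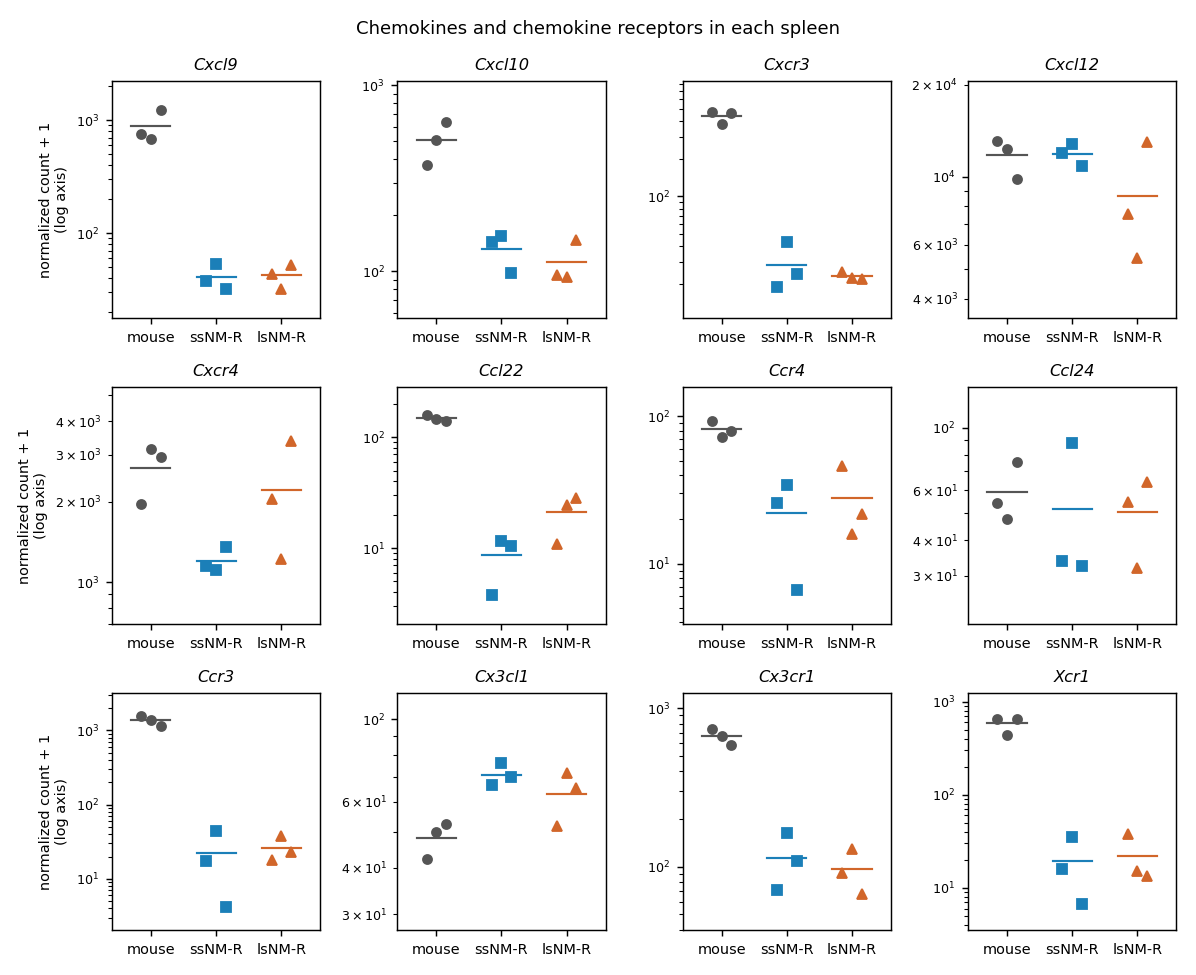
Normalized count + 1 (y axes, logarithmic, each with its own range) of 6 chemokines and 6 chemokine receptors in each spleen, by group (x axes); points are spleens and lines are means of 3. Cxcr3, Ccr3 and Xcr1 lie far below the mice in all 6 NM-R spleens, while the groups overlap for Cxcl12, Cxcr4 and Ccl24.

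In the interleukin 1 family, 5 of 14 genes were higher in NM-Rs, 6 lower and 3 not called. The median log2 fold change was -0.10, which turned to 0.0089 when spleens were scaled to the same upper quartile and to 0.044 without mouse 3. Il1b, an inflammatory ligand released by activated myeloid cells, was 419, 424 and 351 in mice, 284, 267 and 1282 in ssNM-Rs and 353, 309.6 and 1443 in lsNM-Rs. The species overlapped, since ssNM-R 6 and lsNM-R 5 were far above all mice and the other 4 NM-Rs lay below mouse 1 and mouse 2, with lsNM-R 1 just above mouse 3 (log2 fold change 0.33 ± 0.58 SE, limma adjusted p = 0.614). Without ssNM-R 6 the log2 fold change was -0.039, without lsNM-R 5 it was -0.024, and without both, an alternative chosen after seeing the data, Il1b was called lower in the NM-Rs (-0.39, limma adjusted p = 0.013, with 0.013 to 0.964 over all alternatives). ssNM-R 6 and lsNM-R 5 were both of 23 months and had the deepest libraries. With a term for library depth the sign of Il1b also turned, without a call (log2 fold change -0.45, limma adjusted p = 0.43), and the part of age was not tested.

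Il18, which acts on T and NK cells, was 617, 533 and 578 in mice, 213, 198 and 124 in ssNM-Rs and 174, 147 and 188 in lsNM-Rs, with all NM-Rs below all mice (log2 fold change -1.74 ± 0.18 SE, limma adjusted p = 8.24e-06). Il33, an alarm signal stored in nuclei of stromal cells, ranged from 278 to 651 in NM-Rs against 230.4 ± 24.2 in mice (SD, n = 3) and was higher (log2 fold change 0.89 ± 0.24 SE, limma adjusted p = 0.00717). Il1a was lower (log2 fold change -1.28 ± 0.24 SE, limma adjusted p = 6.19e-04). Il36g had 8 reads over the 6 NM-R libraries, with no more than 2 in any, and a mean of 48.7 normalized counts in mice, a ratio of 40.8 with a 95% counting interval of 20.7 to 94.4.

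Il1r1, the signalling receptor of interleukin 1, was 680.3, 503 and 531 in mice, 1094, 1324 and 4223 in ssNM-Rs and 1518, 1381 and 2599.8 in lsNM-Rs. All NM-Rs exceeded all mice, with the highest values in ssNM-R 6 and lsNM-R 5 as for Il1b (log2 fold change 1.66 ± 0.39 SE, limma adjusted p = 0.00275). Its partner chain Il1rap was not called (log2 fold change 0.39 ± 0.20 SE, limma adjusted p = 0.102), but was called higher without ssNM-R 2 (log2 fold change 0.53). Il18r1, the binding chain for Il18, was 634, 590.2 and 607 in mice, 119, 120.1 and 118 in ssNM-Rs and 129, 119 and 116 in lsNM-Rs. NM-R spleens lay close together, with lsNM-R 1 slightly above the rest (log2 fold change -2.34 ± 0.10 SE, limma adjusted p = 2.51e-08). Il1rl2, the receptor of Il36g, was 149.5, 112 and 107 in mice, 0, 4.5 and 8.85 in ssNM-Rs and 8.47, 2.12 and 6.9 in lsNM-Rs, with no overlap (log2 fold change -4.67 ± 0.66 SE, limma adjusted p = 9.24e-05). Il1rl1, the receptor of Il33, was not called, and mice spread from 92.3 to 272 (log2 fold change -0.52 ± 0.32 SE, limma adjusted p = 0.162). It was called lower without mouse 1 (log2 fold change -0.93). Il1rapl1 had 1 read in the 3 mouse libraries and a mean of 23.2 normalized counts in NM-Rs, a ratio of 66.6 with a 95% counting interval of 12.0 to 2631.

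Inhibitors of the family went apart. Il1r2, a decoy receptor that binds interleukin 1 without a signal, was 57.2, 55.4 and 35.7 in mice, 229.7, 336 and 569 in ssNM-Rs and 665, 299.7 and 635 in lsNM-Rs. Even the lowest NM-R spleen, ssNM-R 2, was well above the mice (log2 fold change 3.10 ± 0.33 SE, limma adjusted p = 1.29e-05). Il1rn, which blocks Il1r1, was 94.3, 89.1 and 80.7 in mice, 114, 203 and 183 in ssNM-Rs and 219, 264 and 258 in lsNM-Rs. The species did not overlap, and ssNM-R 2 was nearest to the mice (log2 fold change 1.17 ± 0.19 SE, limma adjusted p = 2.36e-04). Il18bp, a soluble trap for Il18, was 482, 559.8 and 585 in mice, 5.47, 4.5 and 3.16 in ssNM-Rs and 2.82, 9.17 and 4.39 in lsNM-Rs. NM-R spleens held between 2 and 13 reads each, and their mean was 110.2-fold below that of mice (log2 fold change -6.59 ± 0.32 SE, limma adjusted p = 4.77e-08). Il18bp is annotated on mouse chromosome 7 (mm9, chr7:109163593-109166669, minus strand), and its symbol is also listed in the NM-R RefSeq annotation of another assembly. Whether the NM-R gene model counted here is complete was not tested.

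**Figure D3:**
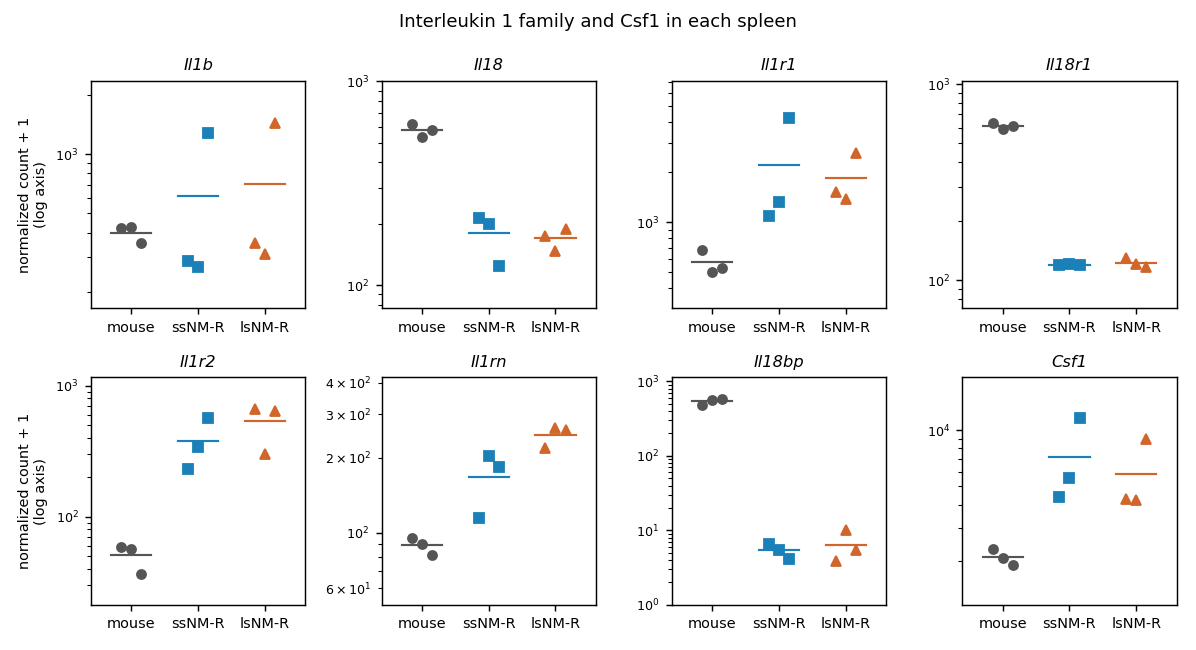
Normalized count + 1 (y axes, logarithmic, each with its own range) of 7 interleukin 1 family genes and Csf1 in each spleen, by group (x axes); points are spleens and lines are means of 3. Il1b, Il1r1 and Csf1 reach their 2 highest NM-R values in ssNM-R 6 and lsNM-R 5, and Il18bp lies between 2.82 and 9.17 normalized counts in NM-Rs.

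Of the 12 genes of the common gamma chain and type 2 family, 2 were higher in NM-Rs, 9 lower and Il2 not called, with a median of -2.37. Il2 was called higher without lsNM-R 4 (log2 fold change 1.13). Il7, a survival factor for lymphocytes, was 171, 139 and 136 in mice, 21.9, 27 and 34.1 in ssNM-Rs and 43.8, 38.8 and 55.8 in lsNM-Rs. NM-Rs lay below all mice, and lsNM-Rs above ssNM-Rs (log2 fold change -2.04 ± 0.21 SE, limma adjusted p = 7.83e-06). Its receptor Il7r was 1977, 1827 and 2059 in mice, 319, 404 and 325 in ssNM-Rs and 775, 310.3 and 625 in lsNM-Rs, without overlap between the species (log2 fold change -2.18 ± 0.24 SE, limma adjusted p = 1.60e-05). Il15, which sustains NK and memory T cells, averaged 147 ± 14.9 over 3 mice and 64.2 ± 13 over 6 NM-Rs (± SD), without overlap (log2 fold change -1.20 ± 0.19 SE, limma adjusted p = 2.15e-04).

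Il21r, the receptor of a T helper cytokine that acts on B cells, was 2664, 2523 and 2592 in mice, 278, 365 and 285 in ssNM-Rs and 335, 283 and 377 in lsNM-Rs. Spread within each species was small beside the gap between them (log2 fold change -3.02 ± 0.12 SE, limma adjusted p = 1.40e-08). Il2rb, shared by the receptors of Il2 and Il15, was 2235, 1997 and 1985 in mice, 258, 426 and 538 in ssNM-Rs and 411, 212 and 359 in lsNM-Rs, and Il2ra, the high-affinity chain of activated and regulatory T cells, was 272, 249 and 249 in mice, 24.6, 25.5 and 8.85 in ssNM-Rs and 41, 15.5 and 20.1 in lsNM-Rs. For both chains each NM-R was below each mouse (log2 fold change -2.56 ± 0.25 SE, limma adjusted p = 6.15e-06 for Il2rb and log2 fold change -3.58 ± 0.38 SE, limma adjusted p = 1.11e-05 for Il2ra). Il9r, the receptor of a mast cell and T cell growth factor, was 1157, 1032 and 736 in mice, 27.3, 37.5 and 14.5 in ssNM-Rs and 21.2, 28.2 and 12.5 in lsNM-Rs. The highest NM-R value was far from the lowest mouse value, in mouse 3 (log2 fold change -5.38 ± 0.33 SE, limma adjusted p = 2.28e-07).

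Il13ra1, the chain through which Il13 signals, went the other way at 521, 441 and 433 in mice, 1294, 1221 and 1828 in ssNM-Rs and 1556, 1545 and 2238 in lsNM-Rs. All NM-Rs were above all mice, lsNM-R 5 the most (log2 fold change 1.77 ± 0.16 SE, limma adjusted p = 4.02e-06). Il13ra2, its decoy, was lower (log2 fold change -2.60 ± 0.61 SE, limma adjusted p = 0.00281). Il13 itself had no read in mice and 2 to 6 reads in each NM-R library, a mean at least 1.16-fold above a floor of 3 reads per mouse library, and Il21 had 1 read over the NM-R libraries against a mean of 5.97 normalized counts in mice.

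Il4i1, an enzyme secreted by myeloid and B cells that breaks down phenylalanine and is no cytokine despite its symbol, was 2422, 1987 and 2065 in mice, 72.5, 51 and 55 in ssNM-Rs and 56.5, 45.8 and 44.5 in lsNM-Rs. The species were widely separated (log2 fold change -5.30 ± 0.15 SE, limma adjusted p = 1.90e-09).

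Among 11 genes of the interleukin 6 and 12 family, 3 were higher in NM-Rs, 7 lower and Il11 was not called, with a median of -1.17. Il12a, a subunit of the cytokine that drives T helper 1 responses, was 140.5, 135 and 126 in mice, 0, 0 and 0.632 in ssNM-Rs and 1.41, 0 and 1.88 in lsNM-Rs. It had 5 reads over the 6 NM-R libraries, so that its ratio of 179 in favour of mice had a 95% counting interval of 76.8 to 552 (limma adjusted p = 1.68e-07). Its partner Il12b was lower by less (log2 fold change -0.77 ± 0.27 SE, limma adjusted p = 0.0251), and its call was lost with the term for depth (log2 fold change -0.49) and without mouse 1 (-0.61) or mouse 3 (-0.71). Il27, made by antigen-presenting cells, was 23.1, 13 and 17.8 in mice, 61.5, 73.6 and 67 in ssNM-Rs and 31.1, 45.8 and 21.9 in lsNM-Rs, and only lsNM-R 5 overlapped with the mice (log2 fold change 1.35 ± 0.27 SE, limma adjusted p = 0.00111).

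Il6st, the gp130 chain that the whole interleukin 6 group signals through, was 5274, 4990.4 and 3812 in mice, 1895, 1757 and 1807 in ssNM-Rs and 1902, 2276 and 2967 in lsNM-Rs. NM-Rs stayed below the mice, with lsNM-R 5 the nearest (log2 fold change -1.17 ± 0.15 SE, limma adjusted p = 4.16e-05). Il6r, the chain that binds Il6, was 1477, 1292 and 1096 in mice, 1379.8, 1814 and 1958 in ssNM-Rs and 2158, 1893 and 2531 in lsNM-Rs, with ssNM-R 2 inside the range of mice (log2 fold change 0.59 ± 0.14 SE, limma adjusted p = 0.00368). Il27ra was 1583, 1379 and 1509 in mice, 206, 227 and 279 in ssNM-Rs and 409.6, 188 and 303 in lsNM-Rs, and Il12rb2, the signalling chain for interleukin 12, was 212, 164 and 198 in mice, 16.4, 55.5 and 25.9 in ssNM-Rs and 38.1, 18.3 and 26.3 in lsNM-Rs. Neither overlapped between the species (log2 fold change -2.52 ± 0.21 SE, limma adjusted p = 2.11e-06 for Il27ra and log2 fold change -2.74 ± 0.36 SE, limma adjusted p = 5.62e-05 for Il12rb2). Il6 was scarce in mice, at 1.00 to 7.34, and spread from 5.47 to 51.2 in NM-Rs (log2 fold change 2.36 ± 0.69 SE, limma adjusted p = 0.00967). Its call was lost without mouse 1 (log2 fold change 1.90).

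Of 7 interleukin 10 family genes, 2 were higher, 4 lower and Il20rb was not called, with a median of -1.10. The median was nearer to 0 at a pseudocount of 5 (-0.67), with DESeq2 (-0.68) and with the term for depth (-0.56). The lower call of Il20ra (log2 fold change -1.46) was lost with DESeq2 (-2.20) and without mouse 2 (-1.34) or mouse 3 (-1.15). Il10, which dampens myeloid cells, was 2.01, 2.17 and 7.34 in mice, 19.1, 6.01 and 19.6 in ssNM-Rs and 12.7, 8.46 and 81.5 in lsNM-Rs. One spleen, lsNM-R 5, was far above the rest, and mouse 3 overlapped with ssNM-R 3 (log2 fold change 2.04 ± 0.70 SE, limma adjusted p = 0.0215). The call of Il10 was lost with the term for depth (log2 fold change 1.59) and without mouse 1 (1.79) or mouse 2 (1.82). Il10ra, its binding chain, was 3403, 3508 and 3337 in mice, 1186, 1206 and 2179 in ssNM-Rs and 2034, 1229 and 2057 in lsNM-Rs, and Il10rb, the shared chain, was 1312, 1254 and 1287 in mice, 808, 904 and 935 in ssNM-Rs and 886, 1031 and 955 in lsNM-Rs. Both were lower in each NM-R than in each mouse (log2 fold change -1.10 ± 0.22 SE, limma adjusted p = 0.00105 for Il10ra and log2 fold change -0.49 ± 0.08 SE, limma adjusted p = 3.58e-04 for Il10rb). Il22ra1, usually a receptor of epithelial cells, was 2.01, 4.35 and 2.1 in mice, 65.6, 79.6 and 111 in ssNM-Rs and 69.2, 61.3 and 41.4 in lsNM-Rs. Every NM-R spleen was well above the mice, which held at most 4 reads each (log2 fold change 4.24 ± 0.29 SE, limma adjusted p = 5.12e-07). Il22ra2, the soluble decoy for Il22, had 9 reads over the NM-R libraries and a mean of 41.0 normalized counts in mice, a ratio of 30.5 with a 95% counting interval of 16.1 to 66.7. Il20rb was not read in ssNM-R 6 and lsNM-R 5 and had 52 normalized counts in ssNM-R 2 and 52.2 in mouse 1.

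The interleukin 17 family was the only family with a median above 0 in the main scaling, at 1.28, or 0.74 with Il25 at its bound, and 6 of its 8 genes were higher and 2 lower. Il17re, the receptor chain for Il17c, was 9.03, 8.7 and 2.1 in mice, 440.3, 461 and 517 in ssNM-Rs and 500.0, 437 and 472 in lsNM-Rs. NM-R spleens were nearly uniform and 71.3-fold above the mice in the mean (log2 fold change 6.14 ± 0.34 SE, limma adjusted p = 1.12e-07). Since the strand setting of the counts is not stated, reads from an overlapping or antisense gene cannot be told apart from those of Il17re. Il17ra, the chain common to these receptors, was 3342, 3289 and 3240.4 in mice, 6926, 5469 and 5265 in ssNM-Rs and 6210.3, 5491 and 4928 in lsNM-Rs, all NM-Rs above all mice (log2 fold change 0.79 ± 0.11 SE, limma adjusted p = 1.01e-04). Il17rc was 93.3, 64.1 and 68.2 in mice, 124, 135 and 171 in ssNM-Rs and 119, 81.8 and 114 in lsNM-Rs, with lsNM-R 4 inside the range of mice (log2 fold change 0.70 ± 0.20 SE, limma adjusted p = 0.00768). Il17rd was 259, 177 and 126 in mice, 32.8, 49.5 and 43 in ssNM-Rs and 72, 59.2 and 45.8 in lsNM-Rs, lower in all NM-Rs (log2 fold change -1.85 ± 0.26 SE, limma adjusted p = 8.22e-05), and Il17rb, the receptor of Il25, was lower as well (log2 fold change -3.25 ± 0.63 SE, limma adjusted p = 8.42e-04).

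All 3 ligands of this family were scarce. Il17b had 1 read over the mouse libraries and a mean of 26.2 normalized counts in NM-Rs, a ratio of 75.1 with a 95% counting interval of 13.5 to 2966. Il25 had no read in mice, and its NM-R mean was at least 1.57-fold above a floor of 3 reads per mouse library. Il17d reached 9.01 to 16.4 in NM-Rs (log2 fold change 1.76 ± 0.41 SE, limma adjusted p = 0.00286).

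Among 5 genes of the colony-stimulating factors and beta common family, Csf1 and Il34 were higher, Csf1r and Il5ra lower and Csf2 not called. Csf1, the main growth factor of macrophages, was 2318, 2074 and 1912 in mice, 4403, 5535 and 11638 in ssNM-Rs and 4284, 4234 and 8975 in lsNM-Rs. All NM-Rs were above all mice, and ssNM-R 6 and lsNM-R 5 stood apart at the top (log2 fold change 1.52 ± 0.32 SE, limma adjusted p = 0.0015). Il34, the alternative ligand of the same receptor, was 298, 268 and 283 in mice, 487, 546 and 682 in ssNM-Rs and 519.8, 430.1 and 531 in lsNM-Rs, with no overlap (log2 fold change 0.90 ± 0.13 SE, limma adjusted p = 8.64e-05). Csf1r, that receptor, carried by monocytes and macrophages, was 16036, 14458 and 12526 in mice, 7131, 10116 and 4069 in ssNM-Rs and 7676, 7540.1 and 6771 in lsNM-Rs. It was thus lower in each NM-R than in each mouse while both of its ligands were higher, and ssNM-R 6 had the lowest value (log2 fold change -1.03 ± 0.24 SE, limma adjusted p = 0.00251). Il5ra, the eosinophil and B cell receptor for Il5, was 309, 347 and 332 in mice, 12.3, 19.5 and 12 in ssNM-Rs and 45.2, 18.3 and 18.8 in lsNM-Rs. Mice were similar to each other, and lsNM-R 1 was above the other NM-Rs (log2 fold change -4.05 ± 0.30 SE, limma adjusted p = 8.98e-07).

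Per kilobase of mouse exon sequence, a scale on which genes can be compared within mice, Csf1r was the most abundant of the 75 genes with a position in the mm9 annotation, at 2742 normalized counts per kilobase, before Cxcr4 at 1485, Cxcl12 at 1438, Il21r at 995 and Il10ra at 977. Spread within NM-Rs was uneven. Of the genes with at least 50 normalized counts on average in NM-Rs, Il1b had the highest coefficient of variation over the 6 spleens, 83.8%, against 10.2% over the 3 mice, followed by Cxcl14 at 78.7%, Il1r1 at 59.3%, Cxcr4 at 52.1% and Csf1 at 47.5%.

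In all, 7 genes had at most 3 reads in every NM-R library (Il22ra2, Il21, Il20ra, Il23r, Il11, Il36g and Il12a) and 4 in every mouse library (Il1rapl1, Il13, Il17b and Il25). The symbols of all 7 are listed in the RefSeq annotation of another NM-R assembly, as are 74 of the 78, all but Ccl2, Ccl11, Ccl24 and Cxcl6.

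Genes of the pathways that these receptors use were counted from lists outside the rule, over the listed genes present in the table. These counts stand beside 39.7% of all genes higher and 38.8% lower in NM-Rs. Of 12 JAK, STAT and SOCS genes (19 listed), 1 was higher in NM-Rs (Stat3) and 4 lower. Stat3, through which Il6 and Il10 receptors signal, was 3465, 3394 and 3386 in mice, 4781, 4732 and 5650.2 in ssNM-Rs and 4777, 5148 and 4756 in lsNM-Rs, above all mice in every NM-R (log2 fold change 0.54 ± 0.09 SE, limma adjusted p = 2.19e-04). Of 9 genes of the MyD88 and IRAK list, 1 was higher and 5 lower, and Myd88, Irak1 and Irak4 were not called. Traf3ip2, the adaptor of interleukin 17 receptors, was 602, 534 and 619 in mice, 20.5, 19.5 and 10.1 in ssNM-Rs and 22.6, 16.2 and 19.4 in lsNM-Rs, far below the mice in each NM-R (log2 fold change -4.98 ± 0.24 SE, limma adjusted p = 5.03e-08). Of the receptor chains, Il17ra, Il17rc and Il17re were higher and Il17rb and Il17rd lower. Of 3 genes for the maturation of interleukin 1 and 18, Gsdmd was higher and 2 were not called. A further 4 of the 7 listed, Casp1, Casp4, Nlrp3 and Aim2, were absent from the table. Of 10 growth cytokines and receptors under other symbols (17 listed), 6 were lower and none higher.

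Of 5 chemokine receptors and related genes under other symbols (11 listed), 1 was higher and 3 lower. Ackr1, a chemokine-binding receptor of red cells and endothelium that gives no signal, was 67.2, 185 and 194 in mice, 2405, 1687 and 1721 in ssNM-Rs and 1725, 1879.9 and 1489.9 in lsNM-Rs. All NM-Rs were far above the mice, among which mouse 1 was lowest (log2 fold change 3.73 ± 0.30 SE, limma adjusted p = 1.62e-06). Ackr2, which removes inflammatory Ccl chemokines, was 313, 298 and 237 in mice, 0, 1.5 and 2.53 in ssNM-Rs and 1.41, 3.53 and 2.51 in lsNM-Rs, with at most 5 reads in any NM-R (log2 fold change -6.74 ± 0.40 SE, limma adjusted p = 1.97e-07).

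Markers of the cells that carry these receptors moved in the same comparison, in which 39.7% of all genes were higher and 38.8% lower. Markers present in the table were counted, which were 8 of 10 listed for B cells, 10 of 12 for T cells, 4 of 7 for NK cells, 4 of 7 for dendritic cells, 7 of 12 for neutrophils, 10 of 13 for macrophages and monocytes, 4 of 6 for mast cells and basophils, 10 of 11 for erythroid cells, 5 of 6 for stroma and 4 of 5 for endothelium. All 8 B cell markers were lower in NM-Rs, with sums of 56061, 55893 and 56981 in mice, 2678, 5119 and 3631 in ssNM-Rs and 7152, 3182 and 3942 in lsNM-Rs and Cd22 with the highest count in both species. All 10 T cell markers were lower, with sums of 11032, 11543 and 12112 in mice, 3583, 5397 and 4638 in ssNM-Rs and 7192, 3840.2 and 5385 in lsNM-Rs and the highest count for Lck in mice and Cd4 in NM-Rs. All 4 NK cell markers were lower, with sums of 1658, 2069.6 and 1970.5 in mice, 148, 255 and 236 in ssNM-Rs and 256, 138 and 263 in lsNM-Rs and the highest count for Gzma in mice and Prf1 in NM-Rs. Each NM-R spleen was thus below each mouse spleen on these lists, and lsNM-R 1 had the highest B and T cell sums among NM-Rs. All 4 dendritic cell markers were lower too, with sums of 4984, 4008 and 4265 in mice, 380.2, 461 and 448 in ssNM-Rs and 408, 409.7 and 414 in lsNM-Rs and the highest count for Itgax in mice and Zbtb46 in NM-Rs.

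Most neutrophil, macrophage, mast cell and erythroid markers went the other way. All 7 neutrophil markers were higher, with sums of 8200.0, 7723 and 6466 in mice, 34379.5, 33395 and 26018 in ssNM-Rs and 44811, 38444 and 34663 in lsNM-Rs and S100a9 with the highest count in both species. Of 10 macrophage and monocyte markers 6 were higher and 2 lower, with sums of 40126, 35099 and 33934 in mice, 57756, 74912 and 63854 in ssNM-Rs and 68001, 58369.7 and 61744 in lsNM-Rs and the highest count for Hmox1 in mice and Siglec1 in NM-Rs. The 2 lower markers were Adgre1 (log2 fold change -5.30) and Marco (log2 fold change -3.79). All 4 mast cell and basophil markers were higher, with sums of 249.9, 219.6 and 188 in mice, 883, 969.8 and 783 in ssNM-Rs and 774, 1054 and 777 in lsNM-Rs and Hdc with the highest count in both species. The sums of these lists were thus higher in each NM-R spleen than in each mouse spleen. All 10 erythroid markers were higher, with sums of 25116, 57622 and 72011 in mice, 232679, 178203 and 153329 in ssNM-Rs and 189980.0, 222066 and 154791 in lsNM-Rs and Slc4a1 with the highest count in both species, and mouse 1 was lowest.

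Of 5 stromal markers 4 were higher, with sums of 11297, 10562 and 9194 in mice, 27727, 25869 and 40726 in ssNM-Rs and 19662, 25638 and 36205 in lsNM-Rs and the highest count for Col3a1 in mice and Acta2 in NM-Rs. ssNM-R 6 and lsNM-R 5, the spleens with the highest Il1b and Csf1, also had the highest stromal sums. Cd14, of the macrophage and monocyte list, was also highest in these spleens, at 9167 and 4918, against 2384 to 4154 in the other NM-Rs. Other markers of that list went the other way, with the lowest NM-R values of Siglec1 (7799 and 9244) and Adgre1 (25.9 and 36.4) in these spleens. The sum of the list was highest in ssNM-R 3, at 74912. Of 4 endothelial markers 2 were lower, with sums of 13147, 12738 and 10961 in mice, 5166, 5279 and 4498 in ssNM-Rs and 4956, 4844 and 4828 in lsNM-Rs and Stab2 with the highest count in both species. In both species, each of these markers exceeded 3 reads in at least 1 library. Bulk RNA cannot tell fewer cells of a type from less RNA per cell, and the part of these cell types in the results on cytokines and receptors was not tested.

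**Figure D4:**
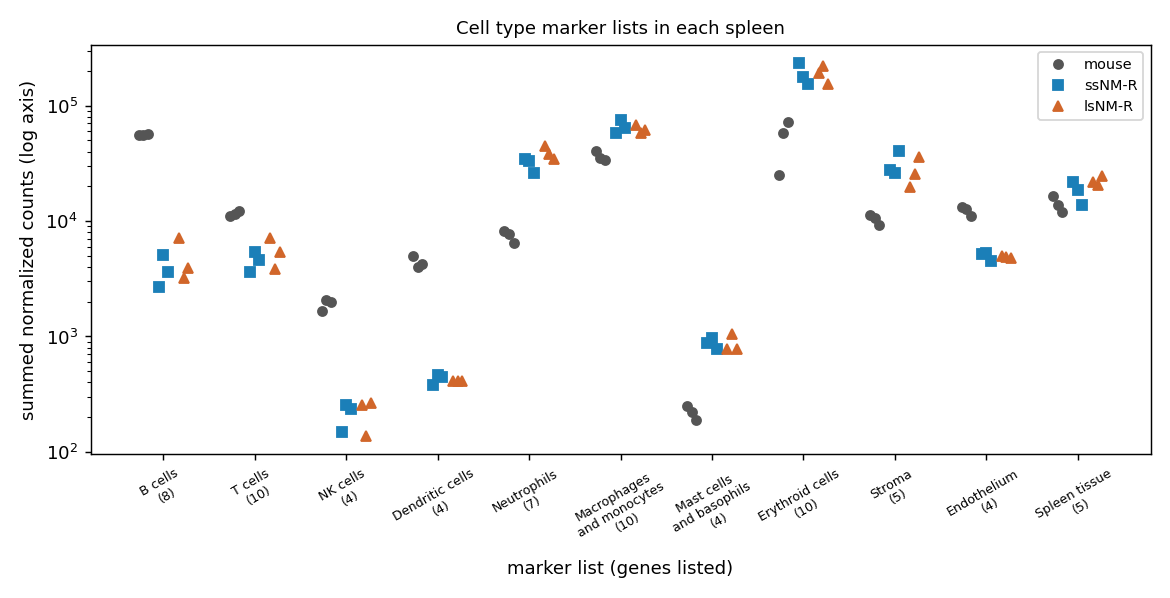
Summed normalized counts of each marker list (y axis, logarithmic) in each spleen, by list (x axis, with the number of genes in the table); points are spleens. B, T, NK and dendritic cell lists lie lower and neutrophil, mast cell and erythroid lists higher in all 6 NM-R spleens than in the 3 mice.

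Enlarged and small NM-R spleens were compared within the species, on 1 genome and annotation. limma called 0 of the 12946 genes and 0 of the 78, beside 0% of all genes in each direction. At an unadjusted p under 0.05 there were 5 of the 78 genes (6.41%), 4 higher in lsNM-R and 1 lower, beside 8.79% of all genes, 5.24% higher and 3.55% lower. The edgeR quasi-likelihood test called 0 of all genes and 0 of the 78, with 7 of the 78 (8.97%) at an unadjusted p under 0.05, beside 8.54% of all genes. DESeq2 called 54 of all genes and 0 of the 78, with 8 of the 78 (10.3%) at an unadjusted p under 0.05, beside 8.63% of all genes. The 3 shallower NM-R libraries held only 1 lsNM-R and the 3 deeper ones only 1 ssNM-R. With a term for library depth, limma called 0 of all genes and 0 of the 78, with 11 of the 78 (14.1%) at an unadjusted p under 0.05, Cxcr4 not among them, beside 12.9% of all genes.

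The 5 genes are Il27, Il7, Ccl22, Il1rn and Cxcr4, none of which passed the adjustment. Il27, whose values are given above, was lower in every lsNM-R than in every ssNM-R (log2 fold change -1.07 ± 0.31 SE, limma unadjusted p = 0.00707, adjusted p = 0.442). Il7 was higher in each lsNM-R than in each ssNM-R (log2 fold change 0.72 ± 0.24 SE, limma unadjusted p = 0.0127, adjusted p = 0.471). For Ccl22, lsNM-R 1 lay among the ssNM-Rs and the other lsNM-Rs above them (log2 fold change 1.36 ± 0.48 SE, limma unadjusted p = 0.019, adjusted p = 0.489). Il1rn was higher in each lsNM-R than in each ssNM-R (log2 fold change 0.60 ± 0.22 SE, limma unadjusted p = 0.02, adjusted p = 0.499). Cxcr4 was higher in lsNM-R 1 and lsNM-R 5 than in any ssNM-R, whereas lsNM-R 4 lay within their range (log2 fold change 0.76 ± 0.32 SE, limma unadjusted p = 0.0392, adjusted p = 0.551). Of 7 neutrophil markers, Ltf, S100a9 and Mmp8 were higher and Mmp9 lower in lsNM-R at an unadjusted p under 0.05. Of 10 T cell markers Cd3g was higher, and of 10 macrophage and monocyte markers Marco was lower at this threshold. From the pathway lists, Ackr3, Jak2 and Irak3 were higher and Thpo lower. None of these genes passed the adjustment, and their part was not tested.

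**Figure D5:**
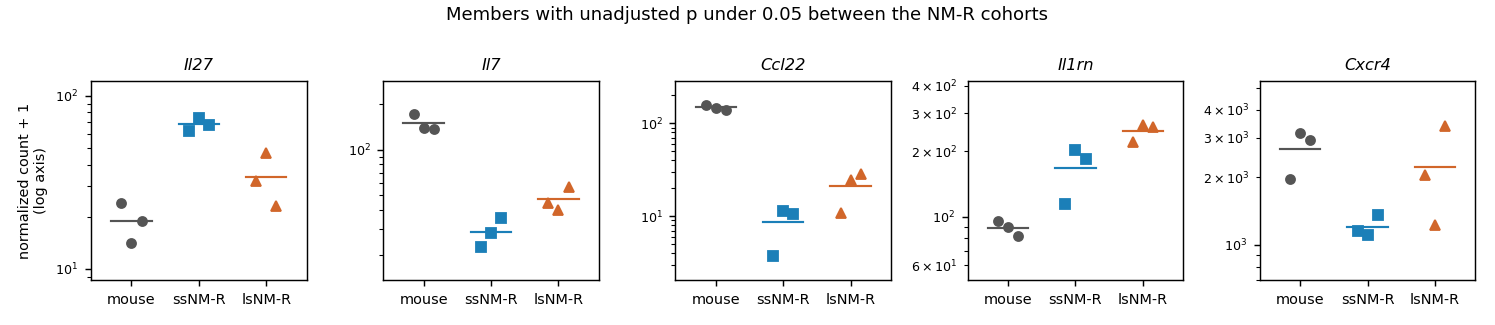
Normalized count + 1 (y axes, logarithmic, each with its own range) of the 5 genes with an unadjusted p under 0.05 between lsNM-R and ssNM-R, in each spleen by group (x axes); points are spleens and lines are means of 3. Cohorts do not overlap for Il27, Il7 and Il1rn, and none of the 5 genes passed the adjusted threshold.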

How the data were processed

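RNA of 9 spleens was sequenced, 3 from each of the mouse, ssNM-R and lsNM-R groups. The labels name mRNA libraries, a HiSeq instrument and Qiagen, and the methods total RNA, a NovaSeq instrument and Promega. The authors aligned reads with STAR 2.5.3a to mm9 (mice) or an NM-R genome, counted them per gene with HTSeq 0.10.0, named NM-R genes by mouse homologue and divided counts by DESeq2 size factors. The deposited signal is thus a normalized count. The strand setting is not stated. In every library 100% of values were whole multiples (tolerance 0.001) of 1 step, which gave whole reads.

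Values were fitted as log2(normalized count + 1) in limma 3.58.1 (R 4.3.3) with a trended variance over 9 spleens and 2-sided tests, with Benjamini-Hochberg adjustment over 12946 genes. edgeR 4.0.16, DESeq2 1.42.0, pseudocounts of 0.5 and 5, a mean of at least 10, other scalings, no trend, only the compared groups, a replicate block, a term for library depth, shared rows counted once and each spleen left out were alternatives. The scripts were tested on simulated data. Values in each spleen are given for the 5 largest called changes per family with a mean of at least 50 in the higher species, the 2 most abundant members per family, members with an unadjusted p under 0.05 between cohorts and, from pathway lists, the 2 largest rises and falls, and beyond this rule for Ccr4, Il10 and Tlx1. Members and lists were chosen with earlier results of these data known. Promoters were read from mm9 with its GENCODE annotation.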

Additional observations from a re-analysis of the deposited data

Results flagged for a closer look

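Among 52 genes with values in each spleen, 5 had 1 NM-R spleen set apart from the next by most of the range of all 6, where chance gives about 1 in 20. Il5ra was highest in lsNM-R 1 with 45.2 normalized counts (next 19.5). Ccr9 was highest in the same spleen with 74.9 (next 34.2), as was Il18r1 with 129 (next 120.1), where all 6 spleens lay close together. Cxcr3 was highest in ssNM-R 3 with 42.0 (next 24.0), and Il10 in lsNM-R 5 with 81.5 (next 19.6).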

How the results depend on the processing

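In all, 70 results were recomputed to give 1481 alternative values, 70 of them from leaving out ssNM-R 6 and lsNM-R 5 together, which was chosen after seeing the data. All 174 alternative counts of called genes were within 1.5 times the main count. Of 1029 values of 49 named genes between NM-R and mouse, 1014 kept direction and side of the threshold. All 110 values of the 5 genes between lsNM-R and ssNM-R kept their direction and stayed uncalled at the adjusted threshold, which none passed in the main fit. This does not cover the unadjusted threshold by which these genes were picked. The 49 are 45 of the 78 genes and 4 from the pathway lists. Calls of Il2, Il6, Il10, Il12b, Il20ra, Il1rl1, Il1rap, Cx3cl1, Cxcl11 and Ccr8 also changed, as given above, and these genes are outside the 49. Cxcr4 lost its call with upper quartile scaling (-0.64), no variance trend (-0.75) and the depth term (-0.81), and ranged from -0.96 to -0.56 with 1 spleen left out. Cxcl12 was called without ssNM-R 6 and lsNM-R 5 (-0.39) and ranged from -0.42 to -0.11 with 1 spleen left out. Il1b turned to -0.37 with the replicate block (called lower, adjusted p = 0.0284), -0.45 with the depth term and -0.39 without ssNM-R 6 and lsNM-R 5, and ranged from -0.039 to 0.53 with 1 spleen left out. The block gives no weight to ssNM-R 6, lsNM-R 5 and lsNM-R 4, so it overlaps with leaving out the first 2. The depth term, estimated within NM-Rs only, overlaps with this omission too.

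Family medians moved as follows. The chemokines had -0.062 with the replicate block, -0.047 with the depth term and -0.40 to -0.11 with 1 spleen left out. The common gamma chain and type 2 family had -1.86 at a pseudocount of 5. The interleukin 1 family had 0.0089 with upper quartile scaling, -0.45 with the replicate block, -0.54 with the depth term, -0.44 without ssNM-R 6 and lsNM-R 5, and -0.28 to 0.044 with 1 spleen left out. The interleukin 10 family had -0.67 at a pseudocount of 5, -0.79 with a mean of at least 10, -0.79 with edgeR, -0.68 with DESeq2, -0.57 with the replicate block, -0.56 with the depth term, -0.51 without ssNM-R 6 and lsNM-R 5, and -1.16 to -0.77 with 1 spleen left out. The interleukin 17 family had 0.88 at a pseudocount of 5 and 0.74 with a mean of at least 10. The replicate block also ended the calls of Il10, Il12b and Cx3cl1, made one of Cxcl11 and turned the ligand median to -0.062. Numbers 4, 5 and 6 have no mouse, so the block compared the mice with ssNM-R 2, ssNM-R 3 and lsNM-R 1 only. A further cause was not tested. Upper quartile scaling moved the median of all genes from 0.0097 to 0.11. Deviations of same-numbered spleens correlated at 0.0101, -0.00453 and 0.000765 over genes, and the replicate block moved no count by over 1.5 times. The labels do not say what the numbers stand for, and whether these spleens share a batch was not tested. Shallow libraries limit genes near 3 reads.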
